A study of Mus musculus with 7 samples.

Results

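Slow and oxidative muscle fiber genes were examined in RNA from aged mouse skin as a panel of 10 genes out of the 55450 listed, chosen by name as the isoforms of slow (type I) or oxidative (type IIA) fibers: Myh7, Myh2, Myl2, Myl3, Tnnt1, Tnni1, Tnnc1, Tpm3, Myoz2 and Mb. All were wild-type male C57BL/6 mice of 24 months, anesthetized with isoflurane, whose dorsal hair had been removed with clippers and Nair and whose skin was wiped with ethanol and then covered with Tegaderm, a semi-occlusive film. The skin received either the vehicle DMSO (mice 480, 481, 482 and 483) or 5 μM ABT-263, a senolytic inhibitor of Bcl-2 family proteins, in DMSO (mice 476, 477 and 478), daily for 5 days. Each mouse gave 1 RNA sequencing library of whole skin, with 20344364 to 26824123 read pairs counted after DMSO and 27325963 to 43562330 after ABT-263, so every ABT-263 library was the larger. The 4 keratinocyte markers Krt5, Krt14, Krt1 and Krt10 summed to 17722 to 50244 CPM over the 7 libraries. CPM here are counts per 1000000 read pairs counted, with library sizes scaled by edgeR's TMM method, and all positions are on GRCm38.

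Striated muscle in mouse skin lies mostly in the panniculus carnosus, a thin sheet under the dermis made largely of fast fibers. A fiber contracts when calcium binds troponin C, troponin I and troponin T then move with tropomyosin on the actin filament, and myosin heads, each with a heavy chain and light chains, pull. Most of these proteins have a slow and a fast isoform from separate genes, and oxidative fibers also hold myoglobin, which stores oxygen for their mitochondria. In bulk skin, fewer muscle fibers in the sample and less RNA per fiber cannot be told apart.

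Of the 10 slow and oxidative genes, 2 were lower after ABT-263 and 0 were higher when edgeR p-values were adjusted over all 17959 genes tested (threshold 0.05), against 11.7% lower and 12.4% higher among all of these genes (24.2% in either direction). The genes that fell were Tnni1, the slow skeletal troponin I, by 1.82 on the log2 scale, and Mb, myoglobin, by 1.45. The other 8 did not pass, and their log2 fold changes ran from -1.10 for Tnnc1 to 0.48 for Myh7. Without adjustment, at p under 0.05, edgeR placed 3 of the genes lower and 0 higher, against 19.5% and 20.6% of all genes. The DESeq2 Wald test placed 3 lower (Tnni1, Mb and Myh2) and 0 higher after adjustment, against 12.3% and 13.6% of the genes it tested. Leaving out each mouse in turn, Tnni1 passed in 7 of 7 fits and Mb in 0, with adjusted p-values for Mb between 0.0583 and 0.133. The median log2 fold change of the 10 genes was -0.84, beside 0.0022 over all genes tested, and 9 of the 10 values were negative. Without DMSO-treated mouse 482 the median was -0.47.

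The panel covered a wide span of levels. In TPM (counts per base of exon, scaled to a sum of 1000000 in each library), the order after DMSO was Mb at 3769 ± 2492, then Myh2 at 553 ± 207, Myoz2 at 144 ± 78.8 and Tpm3 at 81.9 ± 7.20 (SD, n = 4). Below them came Tnnt1 at 66.1 ± 28.1 TPM, Tnnc1 at 34.0 ± 32.7, Tnni1 at 25.2 ± 8.19, Myl2 at 9.23 ± 10.9, Myl3 at 3.04 ± 2.49 and Myh7 at 0.642 ± 0.856. Mb and Myh2 stood apart from the genes below them, with ranges among the DMSO-treated mice that did not overlap and the same order in all 7 mice. From Myoz2 downward, each neighbor in the order overlapped the next one. Within a mouse, Tnnt1 was above Tnnc1 and Myl3 above Myh7 in all 7 mice, whereas Myl2 was above Myl3 in 4 of 7.

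Promoter windows were printed for both genes that fell and for Myoz2, the member whose window held the rarest of the motifs searched. The windows are RefSeq sequences on GRCm38.p6 from 250 bases before to 50 after a start site, matched by symbol for 10 of 10 genes and, where a gene has several windows, taken at the one nearest to a start in GENCODE M21. The distance to that start was 7762 bases for Myl2, whose window lies wholly before the gene's listed span. It was 322 bases for Tnni1, 193 for Myh2 and 32 or less for the others. The windows of Tpm3, Tnni1, Mb, Myl3 and Tnnt1 lie within the gene's listed span, at a start inside it. For Tpm3 (chr3:90079271-90079570), whether the slow muscle transcript starts at this window was not tested. Capitals mark CANNTG (the E-box bound by myogenic factors), CTA and TAG with any 4 bases between them (called the MEF2 core below) and CATTCC (the M-CAT element), each on either strand. The MEF2 core as searched is looser than the site bound by MEF2 factors, so it also matches other sequences. The Tnni1 window is chr1:135799261-135799560 on the plus strand, the Mb window chr15:77022678-77022977 on the minus strand and the Myoz2 window chr3:123034938-123035237 on the minus strand.
Tnni1: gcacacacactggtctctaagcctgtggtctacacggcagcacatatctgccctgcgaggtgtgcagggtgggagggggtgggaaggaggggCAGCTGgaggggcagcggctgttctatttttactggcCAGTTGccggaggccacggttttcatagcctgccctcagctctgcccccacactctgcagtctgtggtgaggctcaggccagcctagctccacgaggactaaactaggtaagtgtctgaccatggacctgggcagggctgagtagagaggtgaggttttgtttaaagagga
Mb: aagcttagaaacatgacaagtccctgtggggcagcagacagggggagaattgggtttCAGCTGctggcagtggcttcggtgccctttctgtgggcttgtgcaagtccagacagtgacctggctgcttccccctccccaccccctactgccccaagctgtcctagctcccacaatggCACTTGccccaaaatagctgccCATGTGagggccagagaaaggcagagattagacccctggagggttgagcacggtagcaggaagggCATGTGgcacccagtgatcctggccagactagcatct
Myoz2: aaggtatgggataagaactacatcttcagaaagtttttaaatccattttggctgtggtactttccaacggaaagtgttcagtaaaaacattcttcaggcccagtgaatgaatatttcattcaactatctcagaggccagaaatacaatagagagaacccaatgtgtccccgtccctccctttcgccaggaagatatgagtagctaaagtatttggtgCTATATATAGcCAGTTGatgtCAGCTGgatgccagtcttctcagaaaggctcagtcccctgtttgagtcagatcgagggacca
CANNTG occurred in the windows of 9 of the 10 members (the distant Myl2 window included) and in 72.3% of all 32851 promoter windows, the MEF2 core in 1 of 10 (Myoz2) against 3.69%, and CATTCC in 3 of 10 (Myh7, Myl3 and Tnnc1) against 14.7%. The Tnni1 window held 2 matches of CANNTG and the Mb window 4. In the Myoz2 window the MEF2 core stood beside 2 matches of CANNTG, with no overlap between them. These matches are descriptions of the letters and no measure of binding.

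Among the myosin heavy chains, Myh7 (ENSMUSG00000053093) encodes the slow (type I) chain and lies on chromosome 14 from 54970684 to 54994626. After DMSO, Myh7 was at 0.205, 0.295, 8.06 and 2.42 CPM in mice 480, 481, 482 and 483, and after ABT-263 at 8.62, 0.655 and 2.19 CPM in mice 476, 477 and 478. The groups overlapped and the spread within each was wide, since single mice differed 39.4-fold after DMSO and 13.1-fold after ABT-263. The log2 fold change of 0.48 ± 1.26 (SE, adjusted p = 0.806 in the edgeR fit) had a 95% interval from -2.45 to 3.41, which spans changes of several fold in both directions, and the value turned to -0.92 without mouse 476. Counts behind these values went down to 5 read pairs in a library. Myh2 (ENSMUSG00000033196), on chromosome 11 from 67171027 to 67197517, encodes the fast oxidative (IIA) chain and was far more abundant. It was at 1060.0, 2369.7, 2261 and 1953 CPM in the 4 DMSO-treated mice and at 1080.4, 1192 and 1112 CPM in the 3 ABT-263-treated mice. All ABT-263-treated mice lay below 3 of the DMSO-treated mice and above mouse 480. The log2 fold change of -0.76 ± 0.29 (SE, adjusted p = 0.0887 in the edgeR fit) did not pass, and without mouse 480 it was -0.96 with an adjusted p of 0.014 from edgeR. Myosin heavy chain genes resemble each other: 26.9% of the 50-base windows of the Myh2 transcript and 22.2% of those of Myh7 also occur in another gene, mainly Myh1 and Myh6. Read pairs wholly within such shared sequence may not be placed uniquely, and their number was not tested.

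**Figure D1:**
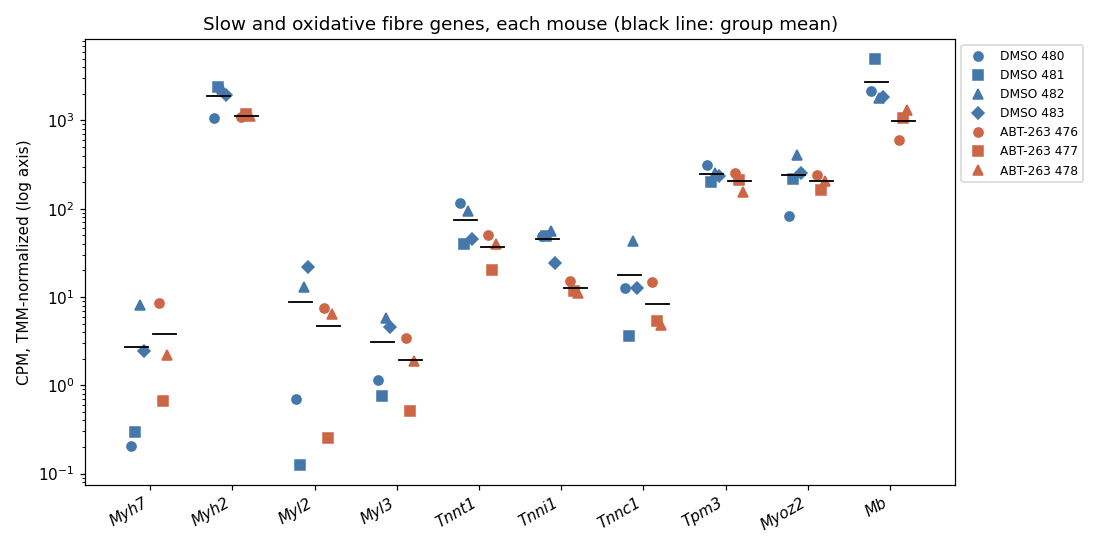
CPM (TMM-normalized, log axis) of the 10 slow and oxidative fiber genes in each of the 7 mice, blue for DMSO and orange for ABT-263, with 1 symbol per mouse and a black line at the group mean. The ABT-263 points of Tnni1 and Mb lie below all DMSO points, and Myh7 and Myl2 spread over more than 10-fold within a group.

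Among the 4 adult heavy chains Myh7, Myh2, Myh1 (IIX) and Myh4 (IIB), counts per kilobase of transcript gave the share of each chain's transcripts in a library, which is not a count of fibers. The slow chain Myh7 took 0.00261% to 0.0792% after DMSO and 0.00810% to 0.103% after ABT-263. For the lowest library, DMSO-treated mouse 481, 7 of 261656 heavy chain counts were Myh7, or 0.00268% (95% Wilson interval 0.00130% to 0.00552%, counting error only). Myh2 took 18.3% ± 4.43 (SD, n = 4) after DMSO and 13.0% ± 2.21 (SD, n = 3) after ABT-263, with overlapping groups (exact permutation test, two-sided, p = 0.171). The share of the fast chain Myh4 ran from 1.71% in mouse 481 and 2.21% in mouse 477 to 46.4% in mouse 483, and in the first 2 of these mice Myh1 made up most of the rest. With 4 mice against 3, the smallest p-value an exact permutation test can give is 0.0286.

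**Figure D2:**
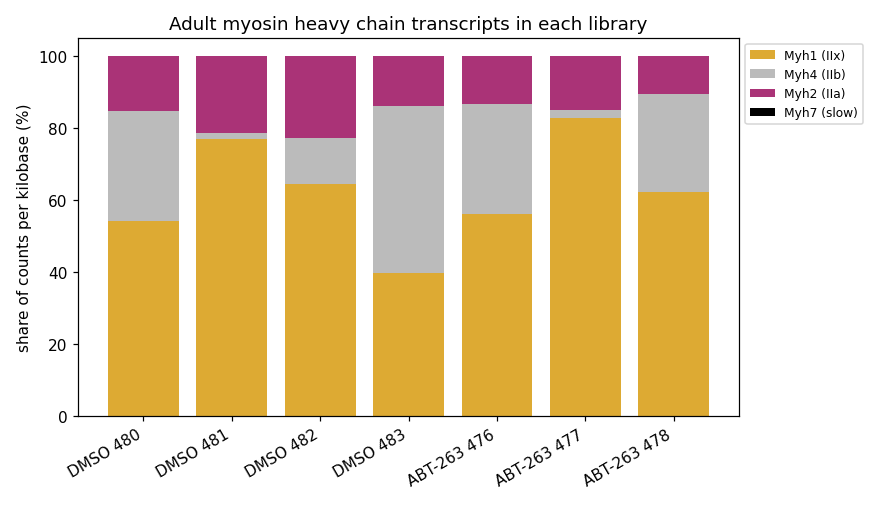
Stacked share (%) of counts per kilobase for the 4 adult myosin heavy chains in each library. Myh1 and Myh4 take most of every bar, Myh2 between 10.7% and 22.8%, and the slow Myh7 at most 0.103%, too little to be seen at this scale.

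Both slow myosin light chains differed more among mice of one treatment than between treatments. Myl2 (ENSMUSG00000013936), on chromosome 5 from 122100951 to 122113472, encodes the regulatory light chain of slow and ventricular myosin and was at 0.696, 0.126, 13.0 and 21.6 CPM after DMSO and 7.44, 0.252 and 6.44 CPM after ABT-263. Myl3 (ENSMUSG00000059741), on chromosome 9 from 110741861 to 110769798, encodes the essential light chain of the same myosin and was at 1.15, 0.758, 5.85 and 4.56 CPM after DMSO and 3.47, 0.504 and 1.87 CPM after ABT-263. For Myh7, Myl2 and Myl3 alike, mice 480, 481 and 477 were the 3 lowest and mice 482, 483, 476 and 478 the 4 highest, so that high and low mice occurred under both treatments. The same 3 mice, picked from the values of these genes, were the lowest in 2.86% of all genes tested, which is a description and no test. Neither light chain passed: Myl2 had a log2 fold change of -0.92 ± 1.52 (SE, adjusted p = 0.688 in the edgeR fit). Myl3 had a log2 fold change of -0.67 ± 0.84 (SE, adjusted p = 0.591 in the edgeR fit). The 95% interval from -4.47 to 2.64 of Myl2 spans changes of many fold, and the lowest library held 3 read pairs of it. Without DMSO-treated mouse 483 the value of Myl2 was 0.035. Heart muscle shares Myh7, Myl2, Myl3 and Tnnc1 with slow fibers. Of 8 heart markers, 4 were too low to be tested, with Myh6 at 0.337 CPM or less in any library, Nppa at 0.179, Ryr2 at 0.590 and Mybpc3 at 1.36. The other 4 were measurable: Tnni3 lay between 3.69 and 8.76 CPM, Myl7 between 0.123 and 2.95 CPM and Nppb between 0.308 and 36.5 CPM over the 7 mice. Cardiac troponin T, Tnnt2, was at 89.1, 160.0, 14.3 and 18.5 CPM after DMSO and 9.69, 13.1 and 6.83 CPM after ABT-263, and the part of these markers' source in the members' values was not tested. The 2 highest mice for Tnnt2, 480 and 481, were among the 3 lowest for Myh7, Myl2 and Myl3.

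Of the 3 slow troponin subunits, only Tnni1 passed the test. Tnni1 (ENSMUSG00000026418), on chromosome 1 from 135779434 to 135810989, encodes slow troponin I, the subunit that holds contraction off at low calcium. It was at 49.3, 49.6, 56.2 and 24.4 CPM in the 4 DMSO-treated mice and at 15.3, 11.6 and 11.2 CPM in the 3 ABT-263-treated mice. Every ABT-263-treated mouse was below every DMSO-treated mouse, as was so for 2 of the 10 members (Tnni1 and Mb) and for 18.4% of all genes tested. None of the 10 members was higher in every ABT-263-treated mouse, as 18.7% of all genes were, which makes 2 of 10 against 37.1% in either direction. The log2 fold change of -1.82 ± 0.29 (SE, adjusted p = 0.00819 in the edgeR fit) corresponds to 3.53-fold less, with a 95% interval from -2.49 to -1.15, and leaving out each mouse gave -2.03 to -1.70. Tnnt1 (ENSMUSG00000064179), on chromosome 7 from 4504570 to 4516382, encodes slow troponin T, which ties the complex to tropomyosin. It was at 117, 40.2, 94.0 and 45.9 CPM after DMSO and at 49.9, 20.4 and 39.6 CPM after ABT-263, and mouse 477 was the lowest of all 7. Tnnc1 (ENSMUSG00000091898), on chromosome 14 from 31208312 to 31211729, encodes the calcium sensor of slow and cardiac muscle and was at 12.7, 3.62, 42.5 and 12.5 CPM after DMSO and 14.9, 5.32 and 4.79 CPM after ABT-263. Mouse 482 stood highest for Tnnc1 and mouse 481 lowest, both after DMSO, and the groups of both genes overlapped. Tnnt1 had a log2 fold change of -1.02 ± 0.46 (SE, adjusted p = 0.137 in the edgeR fit). For Tnnc1 it was -1.10 ± 0.80 (adjusted p = 0.338, edgeR).

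Tpm3 encodes slow tropomyosin in muscle and a cytoplasmic tropomyosin in most other cells, and it has a near copy, Tpm3-rs7, so its count needs care. Tpm3 (ENSMUSG00000027940) lies on chromosome 3 from 90072649 to 90100902, and Tpm3-rs7 (ENSMUSG00000058126) on chromosome 14 from 113314608 to 113316754 as a single exon. The coding sequence of the copy (744 bases) was 99.6% identical to that of the cytoplasmic-length transcript Tpm3-201, with 741 of 744 bases the same. With Tpm3-204, whose coding sequence of 855 bases is the longest of those aligned, it shared 612 bases without a mismatch, 71.6% of that coding sequence. The stretch below, from coding position 28 to 147 of both, holds the only differences (G72A, G98A and G127A, Tpm3 base first, counted from the first base of the start codon), in capitals. It is spliced from exons within chr3:90079759-90086460 for Tpm3 and lies at chr14:113314703-113314822 for the copy, both on the plus strand of GRCm38, read from GENCODE M21 transcripts.
Tpm3: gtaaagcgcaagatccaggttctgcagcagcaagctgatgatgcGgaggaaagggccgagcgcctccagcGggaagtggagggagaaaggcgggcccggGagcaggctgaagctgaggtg
Tpm3-rs7: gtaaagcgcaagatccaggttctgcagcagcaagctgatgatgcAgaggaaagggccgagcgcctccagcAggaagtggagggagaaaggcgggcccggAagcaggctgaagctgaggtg
Over whole transcripts, 62.4% of the 50-base windows of the longest coding Tpm3 transcript also occur in another gene. A read pair that lies wholly within such shared sequence may not be placed uniquely, and how many pairs this affected was not tested.

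Tpm3 was at 312, 201, 251 and 234 CPM after DMSO and 253, 213 and 155 CPM after ABT-263, with overlapping groups and a log2 fold change of -0.27 ± 0.21 (SE, adjusted p = 0.381 in the edgeR fit). Tpm3-rs7 was at 10.4, 11.3, 10.6 and 7.48 CPM after DMSO and 46.5, 38.3 and 37.9 CPM after ABT-263. Every ABT-263-treated mouse was above every DMSO-treated mouse for the copy, which rose with a log2 fold change of 2.04 ± 0.17 (SE, adjusted p = 0.00578 in the edgeR fit). The copy made up 3.09% to 5.30% of the summed CPM of both genes after DMSO and 15.2% to 19.6% after ABT-263. The sum averaged 259.5 ± 46.8 CPM (SD) in the 4 DMSO-treated mice, against 248 ± 53.3 CPM (SD) in the 3 others. With the counts of the copy added, the log2 fold change of Tpm3 was -0.066 (adjusted p = 0.836 from edgeR), and how reads divided between both genes was not tested. Counts per gene do not separate the muscle from the cytoplasmic transcripts of Tpm3.

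**Figure D3:**
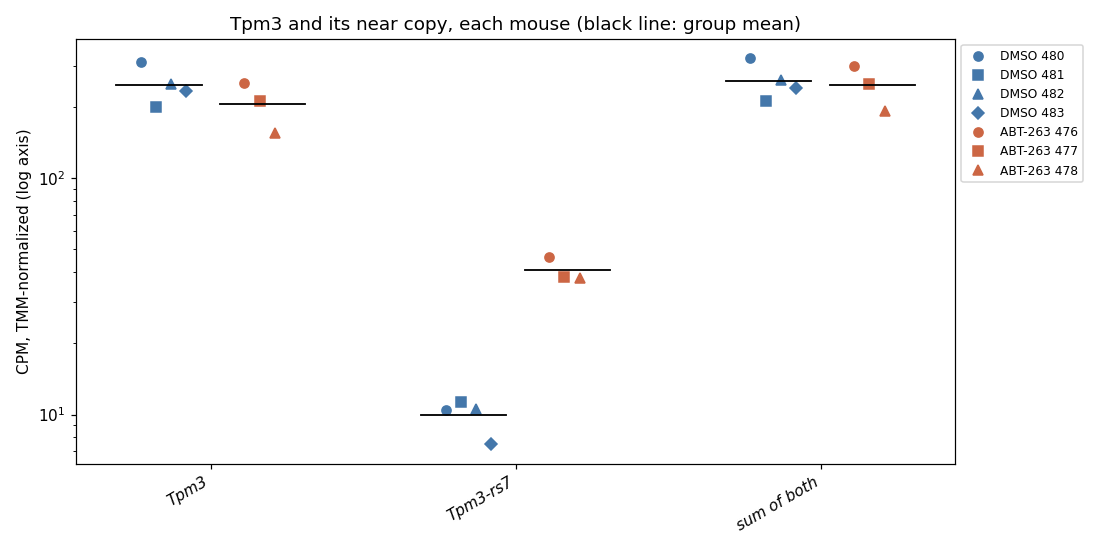
CPM (TMM-normalized, log axis) of Tpm3, of its near copy Tpm3-rs7 and of their sum in each mouse, blue for DMSO and orange for ABT-263, with a black line at the group mean. The copy is at 7.48 to 11.3 CPM after DMSO and 37.9 to 46.5 CPM after ABT-263, while the points of Tpm3 and of the sum overlap between treatments.

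At the Z disc, Myoz2 (ENSMUSG00000028116), on chromosome 3 from 123006206 to 123035015, encodes the calcineurin-binding myozenin of slow fibers. It was at 82.1, 218, 402 and 254 CPM after DMSO and at 241, 164 and 205 CPM after ABT-263. The 3 ABT-263-treated mice lay inside the DMSO range, between mouse 480 and mouse 483, and the log2 fold change of -0.23 ± 0.45 (SE, adjusted p = 0.736 in the edgeR fit) did not pass. Mb (ENSMUSG00000018893), on chromosome 15 from 77015487 to 77050670, encodes myoglobin and was the most abundant member per length. It was at 2165, 4946, 1817 and 1849 CPM in the DMSO-treated mice and at 600.1, 1066 and 1298 CPM in the ABT-263-treated mice. All ABT-263-treated mice were below all DMSO-treated mice, and mouse 481 was far above the other DMSO-treated mice. The log2 fold change of -1.45 ± 0.45 (SE, adjusted p = 0.0492 in the edgeR fit) corresponds to 2.73-fold less, with a 95% interval from -2.48 to -0.42. Without mouse 481 the value was -0.98 (adjusted p = 0.0703 from edgeR). On the opposite strand, 31.9% of the exon bases of Mb overlap Apol6 or Gm49540, and the counting used strand.

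To ask whether fiber types shifted together, each slow or oxidative gene was set against its fast partner within the same library, a ratio that needs no library scaling. Per length, the fast partner was the higher of the pair in all 7 mice for all 9 pairs, from a median of 2.91 times for Myoz1 over Myoz2 to 906 times for Myh4 over Myh7. Of the 9 ratios, 1 was lower in every ABT-263-treated mouse than in every DMSO-treated mouse, 0 were higher in that way and 8 overlapped. A share over all genes was not computed for such pair ratios. By CPM, a different measure, 18.4% of all genes tested were lower in every ABT-263-treated mouse and 18.7% higher. The ratio that separated was Myh2 over Myh1, type IIA over type IIX. Its log2 ratio of counts was -1.82, -1.84, -1.50 and -1.52 after DMSO and -2.09, -2.45 and -2.54 after ABT-263. The difference was -0.69 (exact permutation test, two-sided, p = 0.0286, adjusted p = 0.257 over 9 pairs), and between -0.83 and -0.60 with each mouse left out. It does not pass after adjustment, but that p-value is the smallest the test can give. A single separated pair therefore could not pass over 9 pairs. Both chains also share sequence, since 19.7% of the 50-base windows of Myh2 occur in Myh1. For Tnni1 over Tnni2 the log2 ratio was -6.34, -7.18, -6.95 and -8.42 after DMSO and -7.65, -7.65 and -7.94 after ABT-263. All ABT-263 values were below 3 of the 4 DMSO values, and the difference was -0.52 (exact permutation test, two-sided, p = 0.4, adjusted p = 0.624 over 9 pairs). Without DMSO-treated mouse 483 it was -0.92, and the groups no longer overlapped. The ratio of Myoz2 to Myoz1 was -1.95, -1.35, -0.35 and -1.36 after DMSO and -0.26, -0.52 and -0.68 after ABT-263 on the log2 scale, a difference of 0.77 (exact permutation test, two-sided, p = 0.114, adjusted p = 0.514 over 9 pairs) with a positive sign, and without DMSO-treated mouse 482 (1.07) its groups no longer overlapped. The other 6 differences ran from -0.90 for Myl3 over Myl1 to 1.43 for Myh7 over Myh4, with exact permutation p-values of 0.171 or more. Without DMSO-treated mouse 480 that of Tpm3 over Tpm1 was 1.08, and its groups no longer overlapped, against 0.78 with all mice. With the counts of Tpm3-rs7 added to Tpm3 it was 0.98 with all mice, and the groups overlapped. In all, 3 of the 9 differences were negative and 6 positive.

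**Figure D4:**
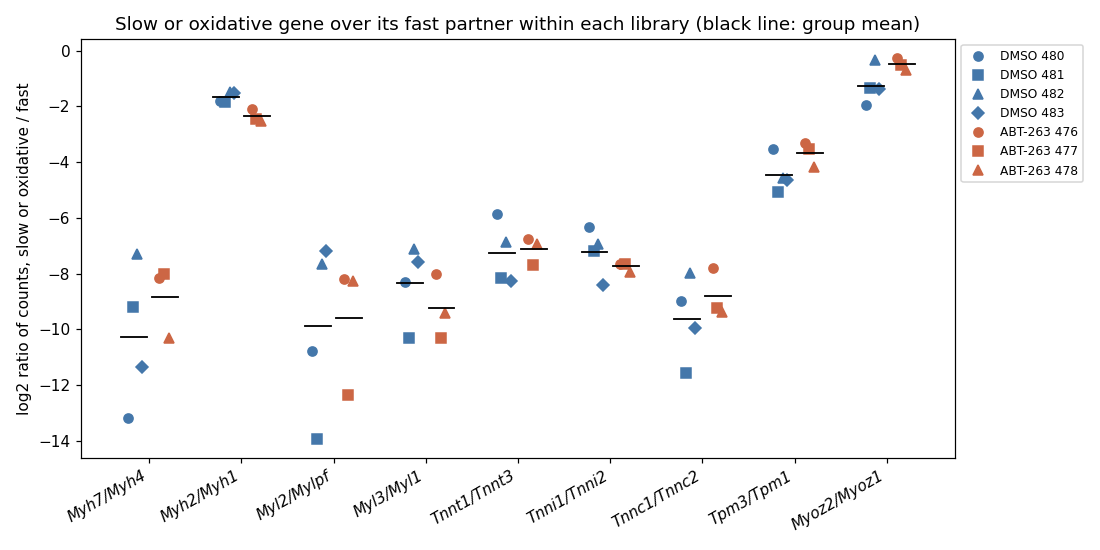
Log2 ratio of counts of each slow or oxidative gene to its fast partner within a library, 1 symbol per mouse, blue for DMSO and orange for ABT-263, with a black line at the group mean. The treatments separate only for Myh2 over Myh1, and the ratios of Myh7, Myl2 and Tnnc1 spread over several log2 units within the DMSO group.

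The fast partners themselves moved unevenly. Of the 16 fast fiber genes, 8 were lower and 0 higher after adjustment in the edgeR fit (8 lower and 0 higher at an unadjusted p under 0.05 and with the DESeq2 Wald test), against 11.7% of all genes lower. Their median log2 fold change of -0.82 lay near that of the slow and oxidative genes. All 3 fast troponin subunits fell, Tnnt3 (the anchor to tropomyosin) by 1.16, Tnni2 (inhibition) by 1.28 and Tnnc2 (calcium sensing) by 1.65 on the log2 scale, and so did Tpm1 (tropomyosin) by 1.09 and Myoz1 (a Z disc protein) by 0.84. Of these 5, Tnnc2 passed with each mouse left out, and the others in 2 (Tnni2) or 1 (Tnnt3, Tpm1 and Myoz1) of 7 fits. On the opposite strand, 74.0% of the exon bases of Tnnc2 overlap Ube2c. The fast myosin genes did not pass, with log2 fold changes of -0.045 for Myh1, -0.46 for Myh4, -0.33 for Mylpf and 0.29 for Myl1. Outside the pairs the largest fall was that of Pvalb, the calcium buffer parvalbumin, at -3.33, and the largest positive value was that of Mybpc2, at 0.91, which did not pass. Casq1 (-1.44) and Pgam2 (-1.32) were also called lower. With a mouse left out, Pvalb and Casq1 passed in 7 of 7 fits and Pgam2 in 5. With each mouse left out, between 3 (leaving out mouse 482 or mouse 476) and 8 (leaving out mouse 480) of the fast genes passed, and at most 5 when any mouse other than 480 was left out. The fast genes were 37093 to 72846 CPM in sum after DMSO and 25552 to 34906 CPM after ABT-263.

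**Figure D5:**
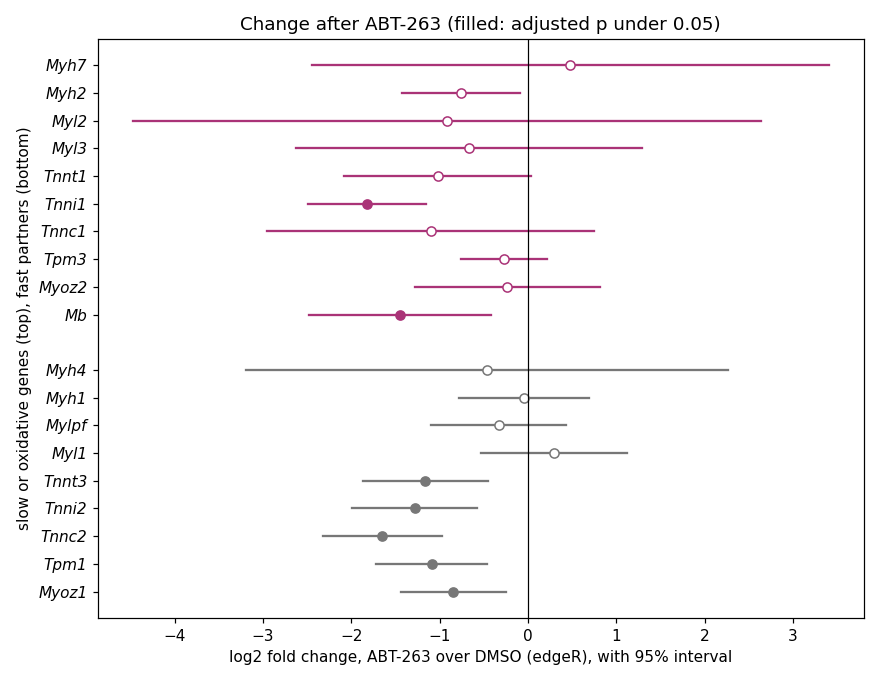
Log2 fold change of ABT-263 over DMSO from edgeR with its 95% interval, for the 10 slow and oxidative genes (purple) and the 9 fast partners (gray), filled where the adjusted p-value is under 0.05. Tnni1 and Mb are filled in the upper block, and the 3 fast troponins, Tpm1 and Myoz1 in the lower one, while the intervals of Myh7, Myl2 and Myh4 are the widest.

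Set against muscle genes that slow and fast fibers both use, the groups of all 10 members overlapped, those of Tnni1 and Mb included. The summed counts of 12 shared sarcomere genes (Acta1, Ttn, Neb, Des, Actn2, Ckm, Myot, Ldb3, Tcap, Tpm2, Xirp2 and Klhl41) were 26362 to 54014 CPM after DMSO, lowest in mouse 480, and 24237 to 33713 CPM after ABT-263, lowest in mouse 477. Of these 12 genes, 2 fell (Tcap by 1.33 and Ttn by 1.01 on the log2 scale) and 10 did not pass, against 11.7% of all genes lower. At an unadjusted p under 0.05 in edgeR, 4 were lower and 0 higher, against 19.5% of all genes lower. The DESeq2 Wald test after adjustment also gave 4 lower and 0 higher, against 12.3% lower. With a mouse left out, Tcap passed in 3 and Ttn in 1 of 7 fits. The largest positive value was that of Myot, at 0.52. Per shared sarcomere counts, 0 of the 10 members were lower and 0 higher in every ABT-263-treated mouse than in every DMSO-treated mouse, and 0 had an exact permutation p under 0.05, where 3.02% of all genes tested were lower and 24.6% higher in that way. By this ratio the median log2 difference was 0.52 over all genes tested. The shared sarcomere counts were thus lower on average relative to most genes, but their sums overlapped between treatments and this was not tested. Over the 10 members the median difference was -0.13. The largest fall was that of Tnni1, with a difference of -1.26 (exact permutation test, two-sided, p = 0.114, adjusted p = 0.786 over 10 genes). That of Mb was -0.88 (exact permutation test, two-sided, p = 0.286, adjusted p = 0.786 over 10 genes) and that of Myh2 -0.19 (exact permutation test, two-sided, p = 0.4, adjusted p = 0.8 over 10 genes). Without DMSO-treated mouse 483 the Tnni1 difference was -1.66, leaving out mouse 477 gave -0.37 for Myh2, and leaving out mouse 482 gave 0.72 for Myoz2, and in each of these cases the groups of that gene no longer overlapped.

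Other genes of the slow and oxidative program, beyond the panel, gave 1 lower and 1 higher among 13 tested of 14 listed, and 11 that did not pass. Myl6b, an alkali light chain found with slow myosin and in non-muscle cells, was at 48.6, 48.9, 56.8 and 37.7 CPM after DMSO and 14.7, 15.1 and 10.5 CPM after ABT-263. It had a log2 fold change of -1.84 ± 0.19 (SE, adjusted p = 0.00578 in the edgeR fit). Atp2a2, the slow-twitch and general calcium pump of the reticulum, was at 111, 75.6, 81.3 and 73.5 CPM after DMSO and 142, 161 and 172 CPM after ABT-263. Its groups did not overlap either, but in the other direction, with a log2 fold change of 0.89 ± 0.17 (SE, adjusted p = 0.0125 in the edgeR fit). Both calls held with each mouse left out. The next smallest p-values belonged to Myh7b, with a log2 fold change of -1.16 ± 0.42 (SE, adjusted p = 0.0784 in the edgeR fit), and Sln, the calcium pump inhibitor sarcolipin, with a log2 fold change of -1.09 ± 0.48 (SE, adjusted p = 0.128 in the edgeR fit). The median log2 fold change of the 13 genes was -0.65. Pln was not tested because its counts were too low.

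Markers of other cell types were measured in the same libraries, and their part in these results was not tested. Keratinocyte markers (4 genes, none past the threshold with edgeR, adjusted or unadjusted, or with DESeq2 after adjustment) summed to 20468 to 50244 CPM after DMSO and 17722 to 50212 CPM after ABT-263, and were highest in mice 480 and 477, the mice with the lowest sums of shared sarcomere genes in their groups. Of 5 dermal fibroblast markers, 3 rose and 0 fell, led by Col3a1 at 2.93, with Pdgfra at 1.72, Col1a2 at 0.83 and with Col1a1 the lowest at 0.47, and their sum went from 3979 to 5715 CPM to 8121 to 13152 CPM without overlap. Smooth muscle markers summed to 337 to 448 CPM and 352 to 480.5 CPM, with 1 of 6 lower (Actg2, -0.97) and Myh11 the highest at 0.69. Adipocyte markers summed to 269.9 to 463 CPM and 236 to 498 CPM, with 1 of 5 tested lower (Cox7a1, a muscle and fat cytochrome oxidase subunit, -1.22), Adipoq highest at 1.85 and Ucp1 at 0 in every DMSO library. Of the developmental myosins, Myh8 fell by 1.64 on the log2 scale and Myh3 had -1.05, not past the threshold. The 8 heart markers summed to 22.7 to 171 CPM after DMSO and 16.9 to 55.3 CPM after ABT-263, and of the 4 tested Nppb was higher (3.78, led by mouse 476 at 36.5 CPM) and Tnnt2 was lowest at -2.84, not past the threshold. With each mouse left out, Nppb passed in 3 of 7 fits, with log2 fold changes between 1.76 (without mouse 476) and 4.32. Of the other genes called in this paragraph, Col3a1 and Pdgfra passed in all 7 such fits, Col1a2 and Myh8 in 2 each, and Actg2 and Cox7a1 in 1 each.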

How the data were processed

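Whole dorsal skin of 7 mice was sequenced, 1 library per mouse. The deposited counts are read pairs per Ensembl gene that the authors made with STAR 2.7.9a on mm10 and featureCounts (Subread 1.6.2), taking uniquely aligned proper pairs on the same strand and leaving out mitochondrial genes. The sources name 2 RNA kits, TRIzol Plus in the labels and RNeasy Fibrous Tissue in the methods. The authors' variance-stabilized values were not used here. Symbols, positions and lengths came from GENCODE M21 on GRCm38 (the assembly of mm10), which held 55190 of 55450 identifiers. This is not the annotation release the authors name.

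Counts were compared with edgeR 4.0.16 in R 4.3.3 (filterByExpr, TMM, robust quasi-likelihood test, two-sided, Benjamini-Hochberg adjustment over 17959 genes, threshold 0.05), which was checked on simulated data. The standard error is the log2 fold change divided by the square root of F, and 95% intervals use the t distribution of the fit. Ratios within a library used a pseudocount of 0.5 counts and exact permutation tests over 35 splits. With so few splits, a single pair or gene could not pass after adjustment. Alternatives were other count filters, size factors and the Wald test of DESeq2 1.42.0, protein-coding genes, removal of length and GC trends (mgcv 1.9.3), thinned counts, addition of Tpm3-rs7 to Tpm3, other denominators and pseudocounts, and leaving out each mouse.

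Named genes are the members, their fast partners, Tpm3-rs7, the extremes of each list and the 4 smallest p-values of the slow program. Ttn, Casq1, Pgam2, Ucp1, Pln, Pdgfra, Col1a2 and the heart markers other than Nppb and Tnnt2 were named after their values were seen. The members and lists were chosen with earlier results of these data known. P-values set a difference between treatments against the spread between mice, and the labels name no batch.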

Additional observations from a re-analysis of the deposited data

Results flagged for a closer look

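Among 30 measures examined in the 4 DMSO-treated mice (CPM of the members and of Tpm3-rs7, log2 ratios of the 9 pairs and log2 ratios to the shared sarcomere genes), 1 had a mouse far from the others by Dixon's ratio at its 5% level, where chance gives about 1.5. Myoglobin (Mb) in mouse 481 was at 4946 CPM against 1817 to 2165 CPM in the other DMSO-treated mice, a ratio of 0.889.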

How the results depend on the processing

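Tnni1 kept its direction and its call in all 15 alternatives, with log2 fold changes from -2.03 to -1.70 and adjusted p-values up to 0.0373. Mb kept its direction in all 15 and its call in 5, and the number of members called lower was 1 in place of 2 without a low-count filter, with protein-coding genes only and with length and GC trends removed, and 3 with the DESeq2 Wald test. With each mouse left out it lay between 1 and 2, the number of genes called among all genes between 1735 (without ABT-263-treated mouse 478) and 4169 in place of 4342, and that of fast fiber genes called lower between 3 and 8. The median log2 fold change of the members then lay between -1.24 and -0.47. The number of slow to fast pairs that separated lay between 1 and 2 downward and 0 and 1 upward, and that of members per shared sarcomere counts between 0 and 1 in both directions. Those tests cannot reach 0.05 with a mouse left out. The log2 fold change ran from -0.92 to 1.95 for Myh7 (negative only without mouse 476), from -1.39 to 0.035 for Myl2 (positive only without mouse 483) and from -0.52 to 0.14 for Myoz2 (positive only without mouse 482), and none of these values passed the threshold. At least 10 counts in every library left 8 of the 10 members, without Myh7 and Myl2. The causes were not tested. No paired analysis was possible because the mouse numbers are not shared between treatments.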

Other observations

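Averaged over the 9 members other than Tpm3, the centered log2 CPM was highest in DMSO-treated mouse 482 (1.21) and lowest in ABT-263-treated mouse 477 (-1.01), with ABT-263-treated mouse 476 at 0.21 and DMSO-treated mice 480 and 481 at -0.32 and -0.39. The genes nearest to this average, by root-mean-square difference over the 7 mice, were Mtus2 (0.25), Ppp1r3c (0.25), Rbm38 (0.30), 1700120C14Rik (0.31) and 2210408F21Rik (0.32), in log2 units. Members with the widest spread weigh most in this average: Myl2 differed 171-fold over the 7 mice and Myh7 42.1-fold, against 2.24-fold for Myh2. Mtus2 was itself low, at 0.328 to 2.57 CPM. Among the members, the profiles of Myh2 and Myoz2 were nearest to each other, with a difference of 0.51, and those of Myl2 and Mb were farthest apart, with 2.42.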
